A study of Arabidopsis thaliana with 12 samples.

Results

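The genes described here are the class B endoglucanases of glycosyl hydrolase family 9 (GH9B) that the array measured singly: GH9B8, GH9B11, GH9B12 and GH9B16. They were taken as the GH9B genes that the platform annotation gives a probe of their own, which makes 4 of the 692 probes with 1 gene, in a table of 3439 probes. Of the 17 GH9B genes found in the gene table, the others had no 1-gene probe. Each of the 4 genes is represented by 1 probe, and no filter on low values was applied, so all 4 entered every comparison except where stated.

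Expression was measured on 12 arrays of Arabidopsis thaliana, 6 of the toc120 mutant and 6 of wild-type (WT) plants, all of the Columbia 0 accession. TOC120 sits in the outer envelope of chloroplasts as a receptor for incoming proteins, and per the labels the mutant imports proteins poorly across that membrane. The sources used here do not give the allele, tissue, plant age, growth conditions or array type. They also do not say that the samples of a genotype are separate plants, so the p-values reflect the spread among these arrays, part or all of which may be technical. In such bulk RNA, fewer cells of a type and less RNA per cell cannot be told apart.

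Plant family 9 hydrolases cut beta-1,4-glucan chains, the linkage of cellulose, and act in the cell wall during growth and wall remodelling. Class A enzymes such as KORRIGAN are anchored in a membrane and take part in cellulose synthesis. Class B enzymes are secreted and consist of a signal peptide and the catalytic domain, and class C enzymes carry a carbohydrate-binding module in addition.

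TOC120 itself has 0 probes in the annotation, alone or shared, so the genotype labels were not checked against it. Deposited intensities summed to 2688 to 3686 on toc120 arrays and to 2641 to 3553 on WT arrays, and array medians were 0.188 to 0.278 on toc120 arrays and 0.151 to 0.157 on WT arrays. Intensities are linear values of unknown background correction, with a top of 100, and exact zeros made up 11.8% to 16.5% of the values on toc120 arrays and 13.5% to 17.3% on WT arrays. A probe at exactly 0 is described as listed at 0. Arrays with neighbouring numbers of a genotype (1 and 2, 3 and 4, 5 and 6) were more alike (Spearman's rho 0.952 to 0.975 across probes) than its other arrays (0.910 to 0.946), so a second fit averaged such neighbours first, and its p-values are given as averaged.

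The question was which transcripts differ when chloroplast protein import is impaired. GH9B16 and GH9B8 were higher in toc120, GH9B12 was lower, and GH9B11 did not pass the test. Levels below are deposited intensities. Differences are log2(toc120) minus log2(WT) of quantile-normalised intensities, each with 0.0261 added before the logarithm, tested with limma over all probes with Benjamini-Hochberg adjustment at 0.05. By this test 3 of the 4 members were called, 2 of them higher and 1 lower, against 46.4% of all 1-gene probes (23.3% higher and 23.1% lower). With neighbours averaged 2 of the 4 were called, against 31.1%. With 4 members, these counts are not a result about the family. The median log2 difference was 0.44 over the 4 members and 0 over all probes. The members ran from -2.32 to 2.68, so their median describes no common shift. The median over all probes depended on the scaling and was 0.23 as deposited.

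GH9B16 (AT4G38990) rose in toc120. Its intensity had a lowest value of 0.165, a median of 0.263 and a highest value of 0.311 on the toc120 arrays, while 3 of the 6 WT arrays were listed at 0 and the others reached at most 0.0505. The genotypes did not overlap, which holds for 28.5% of all 1-gene probes. The mean was 0.251 ± 0.0569 in toc120 and 0.0133 ± 0.0200 in WT (SD, n = 6 each). The log2 difference was 2.68 (SE 0.28, 95% interval 2.06 to 3.29, limma adjusted p = 1.31e-05, and 0.00431 averaged), and toc120 was the higher in 6 of 6 equal-numbered comparisons, by 1.93 to 3.36.

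The size of the GH9B16 rise depended on how its near-zero WT level was treated. The ratio of mean intensities was 18.8, the fitted fold was 6.40, and with 0.240, the median of positive intensities, as the added constant the fitted fold was 1.78 (limma adjusted p = 6.69e-06). Among the 692 1-gene probes it had the 4th largest fitted rise with the small constant and the 51st with the larger one.

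GH9B12 (AT2G44570) fell in toc120. Its intensity on the toc120 arrays had a lowest value of 0.0311, a median of 0.112 and a highest value of 0.121, against a lowest value of 0.246, a median of 0.480 and a highest value of 0.578 on the WT arrays. No toc120 array reached the lowest WT array. Such a lack of overlap, in either direction, held for 28.5% of all 1-gene probes. The mean was 0.0980 ± 0.0346 in toc120 and 0.434 ± 0.124 in WT (SD, n = 6 each), a 4.43-fold difference in mean intensity.

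The fitted log2 difference of GH9B12 was -2.32 (SE 0.24, 95% interval -2.85 to -1.79, limma adjusted p = 1.29e-05, and 0.00562 averaged). It was lower in toc120 in 6 of 6 equal-numbered comparisons, with differences from -3.26 to -1.60. With the larger constant the fall was 2.33-fold instead of 4.99-fold. Its place among the falls of 1-gene probes was the 6th with the small constant and the 11th with the larger one, so its standing moved less with the constant than that of GH9B16.

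GH9B8 (AT2G32990) was higher in toc120 over the 12 arrays, with less support than GH9B12 or GH9B16. Its intensity on the toc120 arrays had a lowest value of 0.0524, a median of 0.104 and a highest value of 0.126, against a median of 0.0129 and a highest value of 0.0612 on the WT arrays, 2 of which were listed at 0. The genotypes overlapped, because WT 2 was above toc120 1. The mean was 0.0960 ± 0.0291 in toc120 and 0.0202 ± 0.0239 in WT (SD, n = 6 each).

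The log2 difference of GH9B8 was 1.17 (SE 0.33, 95% interval 0.44 to 1.90, limma adjusted p = 0.0125). Averaging neighbours took away this call (limma adjusted p = 0.0940), and so did averaging together with a block for the number pair (0.160), whereas averaging the intensities as deposited kept it (1.51, limma adjusted p = 0.0449). The toc120 array was the higher in 6 of 6 equal-numbered comparisons, but the difference was 2.19 and 2.22 for numbers 5 and 6, where WT was listed at 0, and 0.12 for number 2. Without numbers 5 and 6 the log2 difference was 0.76 (limma adjusted p = 0.133). With the larger constant the fitted fold was 1.21 instead of 2.25.

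GH9B11 (AT2G44560) did not pass the test. Its intensity on the toc120 arrays had a lowest value of 0.0681, a median of 0.109 and a highest value of 0.212, against a lowest value of 0.0639, a median of 0.0933 and a highest value of 0.179 on the WT arrays. The genotypes overlapped over nearly their whole range. The mean was 0.128 ± 0.0633 in toc120 and 0.115 ± 0.0497 in WT (SD, n = 6 each), and the log2 difference was -0.29 (SE 0.31, 95% interval -0.97 to 0.40, limma adjusted p = 0.489, and 0.694 averaged). The interval leaves room for a fall of up to 0.97 or a rise of up to 0.40 on the log2 scale.

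The values of GH9B11 clustered by neighbouring array numbers within each genotype, in an order that differed between the genotypes. Neighbouring arrays differed by at most 0.18 in toc120 and 0.30 in WT on the log2 scale, whereas the means of neighbouring pairs ranged over 1.25 in toc120 and 1.07 in WT. In toc120 the highest arrays were 5 and 6 (0.199 and 0.212), and in WT they were 1 and 2 (0.177 and 0.179). The difference toc120 minus WT was accordingly negative for numbers 1 to 4 (-0.92 to -0.44) and positive for numbers 5 and 6 (0.52 and 0.61).

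**Figure D1:**
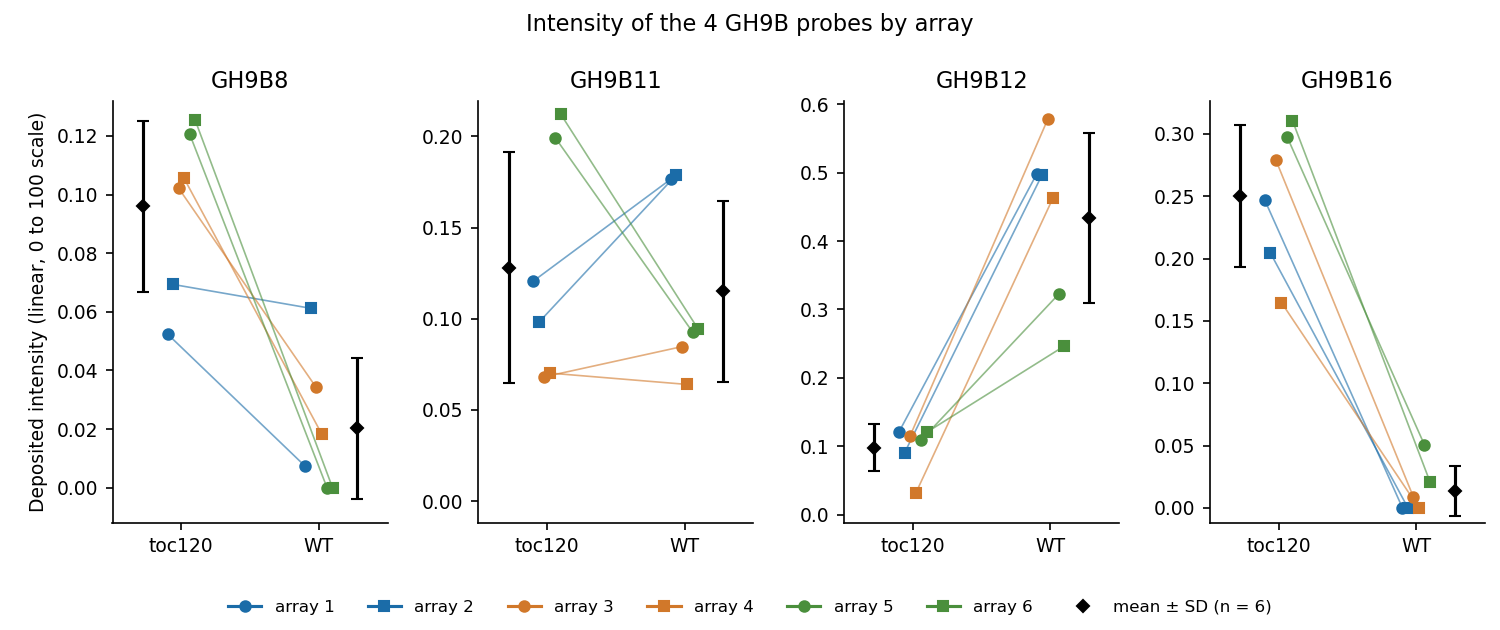
Deposited intensity (linear scale, vertical axes differ between panels) of the GH9B8, GH9B11, GH9B12 and GH9B16 probes on 6 toc120 and 6 WT arrays; lines join arrays of equal number, one colour marks neighbouring numbers, and black diamonds are means ± SD (n = 6). GH9B16 and GH9B12 separate the genotypes on every array, in opposite directions, GH9B8 overlaps through WT 2, and the lines of GH9B11 cross. The genotypes do not overlap for 28.5% of all 1-gene probes.

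The array medians differed between genotypes, so the direction of each member was examined under other scalings. Without scaling, the median log2 difference of all probes was 0.23, and with equal array medians it was -0.04. GH9B16 was at 2.91 as deposited and 2.60 with equal medians, GH9B8 at 1.51 and 1.19, and GH9B12 at -1.91 and -2.41, and each of these passed over the 12 arrays. GH9B11 was at 0.10 as deposited and -0.37 with equal medians, and passed under neither (limma adjusted p = 0.853 and 0.383).

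**Figure D2:**
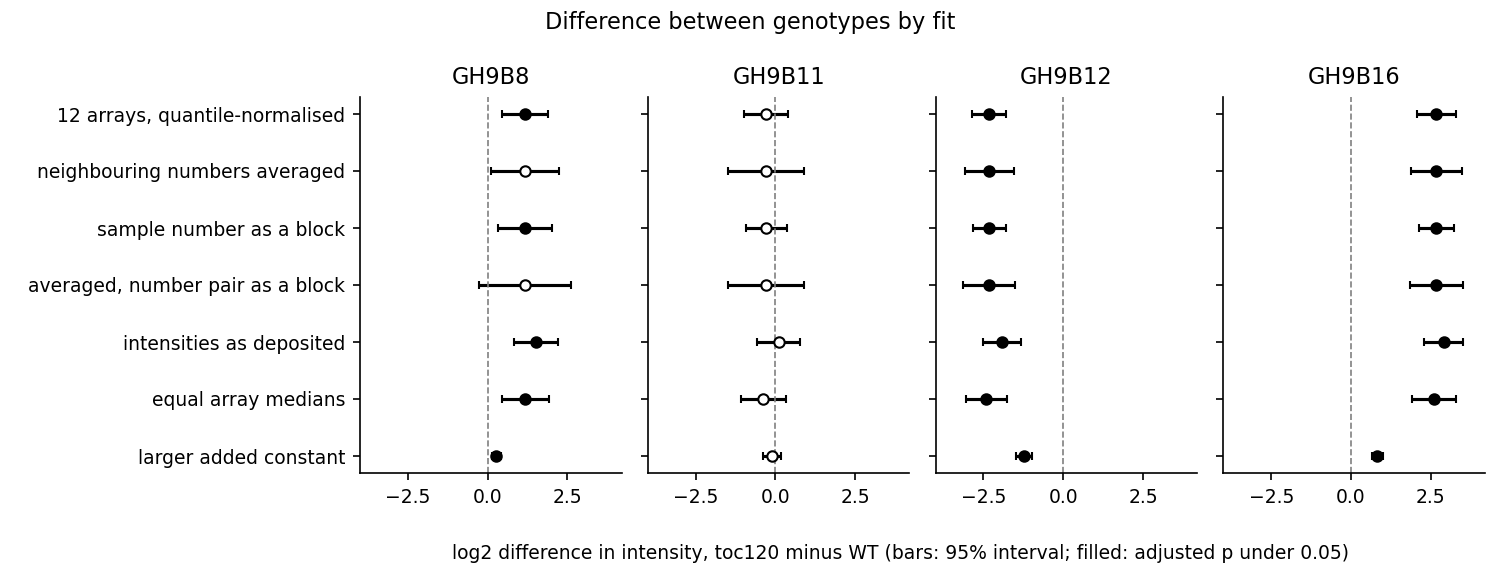
Log2 difference in intensity, toc120 minus WT, of the 4 members under 7 fits, with 95% intervals; filled points have a limma adjusted p under 0.05 over all probes. GH9B16 stays between 0.83 and 2.91 and GH9B12 between -2.41 and -1.22, both called in all 7, while GH9B8 is not called in the 2 averaged fits and GH9B11 lies on both sides of 0.

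A rank within the array needs neither scaling nor an added constant, so the share of probes with a lower intensity was taken for each member on each array. GH9B12 stood above 19.7% to 39.0% of the probes on toc120 arrays (median 31.2%) and above 65.7% to 81.2% on WT arrays (median 78.3%). GH9B16 stood above 36.7% to 58.2% on toc120 arrays (median 54.3%) and above 0% to 22.5% on WT arrays (median 8.13%). Probes listed at 0 all rank at 0%, so no probe ranks between 0% and the share of zeros on its array. The WT median of GH9B16 is thus the midpoint between arrays at 0% and WT 6 at 16.3%. Placing ties at 0% lowers the WT ranks of GH9B16 and GH9B8, which had zeros there. The probe of GH9B12 was thus brighter than most probes in WT and dimmer than most in toc120, and that of GH9B16 was near the middle in toc120 and near the bottom in WT.

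GH9B8 stayed in the lower part of the range in both genotypes, above 26.5% to 32.5% of the probes on toc120 arrays and 0% to 27.8% on WT arrays. GH9B11 stood above 23.96% to 46.8% on toc120 arrays and 30.2% to 55.4% on WT arrays. In exact two-sided permutation tests over the 924 splits of the 12 arrays, run on these 4 members, the difference in mean rank gave p = 0.00216 for GH9B12 and for GH9B16, the smallest p these splits can give, 0.00433 for GH9B8 and 0.426 for GH9B11. These tests treat neighbouring arrays as independent.

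**Figure D3:**
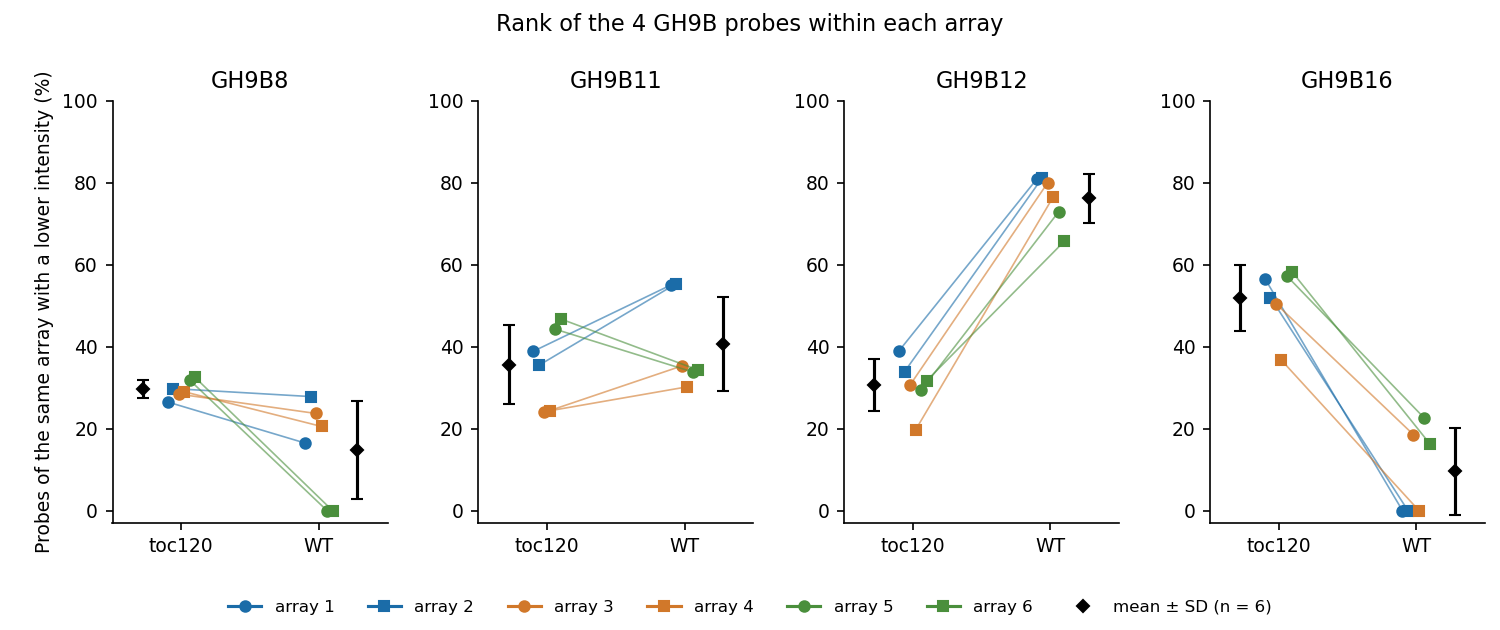
Share of the probes of an array with a lower deposited intensity (%), for each member on 6 toc120 and 6 WT arrays; lines join equal numbers, colours mark neighbouring numbers, and diamonds are means ± SD (n = 6). GH9B12 lies at 19.7% to 39.0% in toc120 and 65.7% to 81.2% in WT, and GH9B16 at 36.7% to 58.2% in toc120 and 0% to 22.5% in WT.

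Whether the members differed from each other in their response was tested on the log2 ratio of 2 members within an array, in which a factor common to the array cancels apart from the added constant. The ratio itself compares 2 probes and says nothing on which transcript is the more abundant. Only its difference between genotypes is read here. All 6 pairs of members were compared with exact two-sided permutation tests, adjusted over the 6 pairs.

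The contrast was largest for GH9B16 over GH9B12, whose log2 ratio was 1.101 ± 0.257 in toc120 and -3.90 ± 0.81 in WT (SD, n = 6 each), a difference of 4.998 (exact p = 0.00216, adjusted p = 0.0026). The larger constant reduced it to 2.05 (adjusted p = 0.00325). Each of these 2 probes already separated the genotypes, in opposite directions, so their ratio had to separate them too. Its exact p, the smallest these splits can give, thus adds no evidence beyond the 2 single probes. GH9B11 and GH9B12, which lie next to each other on their chromosome, also differed. The ratio of GH9B12 over GH9B11 was -0.28 ± 0.51 in toc120 and 1.76 ± 0.42 in WT, a difference of -2.03 (exact p = 0.00216, adjusted p = 0.0026), and no toc120 array reached a WT array.

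The remaining pairs differed too, with adjusted p = 0.0026 for GH9B11 over GH9B8 (-1.46), GH9B12 over GH9B8 (-3.49) and GH9B16 over GH9B11 (2.97). Their exact permutation p was 0.00216 each, again the smallest these splits can give. By construction, each pair's difference is the gap between the single log2 differences of its 2 members, also for GH9B12 over GH9B11. GH9B12 and GH9B8 were already called in opposite directions. The pairs thus add no change beyond those of the single probes. With the small constant, the members that both rose differed least clearly. GH9B16 was listed at 0 on WT 1, 2 and 4 and GH9B8 on WT 5 and 6, so those WT ratios depend on the added constant. With the larger constant, GH9B11 over GH9B8 had the highest adjusted p instead, as given below. The ratio of GH9B16 over GH9B8 was 1.105 ± 0.354 in toc120 and -0.40 ± 1.21 in WT, a difference of 1.51 whose genotypes overlapped (exact p = 0.0238, adjusted p = 0.0238). This pair did not pass with equal numbers as a block (exact sign-flip permutation, adjusted p = 0.0625). The other 5 had an adjusted p of 0.0375 there, which rests on the smallest p that these sign flips can give. Both kinds of ratio test treat neighbouring arrays as independent. The larger constant reduced all of these differences, to -0.38 for GH9B11 over GH9B8 (adjusted p = 0.0195), -1.49 for GH9B12 over GH9B8, -1.11 for GH9B12 over GH9B11 and 0.94 for GH9B16 over GH9B11 (adjusted p = 0.00325 each), and 0.56 for GH9B16 over GH9B8 (adjusted p = 0.00519). With neighbours averaged, 3 against 3 values cannot give an exact p below 0.1. How often pairs of other 1-gene probes differ in this way was not computed. Singly, 46.4% of all 1-gene probes were called and 28.5% did not overlap between genotypes. The differences between pairs are therefore not a result about the family.

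**Figure D4:**
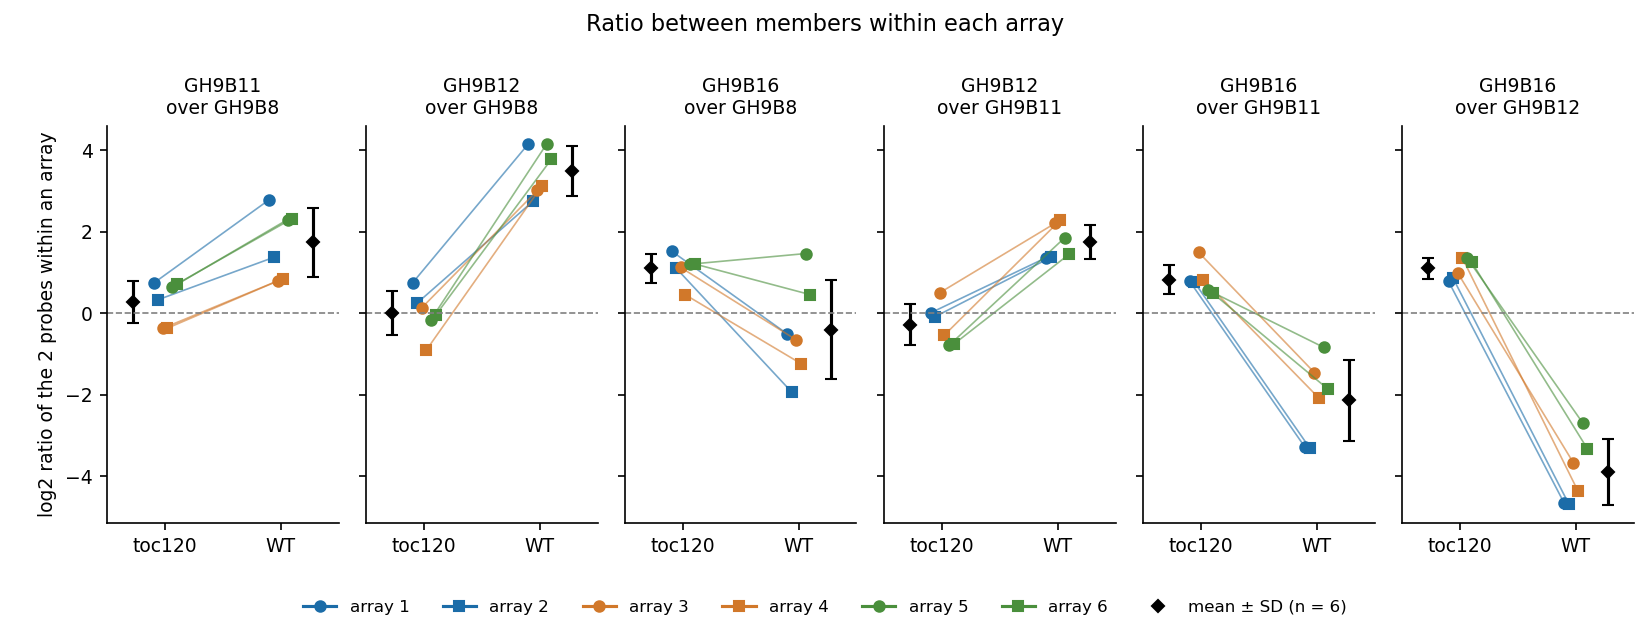
Log2 ratio of 2 GH9B probes within each array for the 6 pairs of members, on 6 toc120 and 6 WT arrays; lines join equal numbers, colours mark neighbouring numbers, and diamonds are means ± SD (n = 6). The ratio of GH9B16 over GH9B12 is 1.101 ± 0.257 in toc120 and -3.90 ± 0.81 in WT, and 5 of the 6 pairs do not overlap, the exception being GH9B16 over GH9B8. The share of such pairs among all 1-gene probes was not computed.

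GH9B11 and GH9B12 belong to a run of 4 consecutive protein-coding genes, GH9B9 to GH9B12, and GH9B16 to a run of 3, GH9B16 to GH9B18, in the TAIR10.1 gene table. GH9B8 has no GH9B gene beside it. Close relatives can share signal on a probe, and the annotation itself lists 7 further probes that carry several genes, at least 1 of them of family 9. Their signal cannot be given to any single gene and is set here beside that of the members only as what those probes read.

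The probe shared by GH9B9, GH9B10, GH9B11 and GH9B12 did not pass. Its intensity ranged from 0 to 0.0931 on toc120 arrays (median 0.0249) and from 0 to 0.128 on WT arrays (median 0.0235), with a log2 difference of 0.01 (95% interval -1.25 to 1.26), which was -0.06 as deposited and -0.30 with equal array medians. Its highest arrays were toc120 5 and 6 and WT 1 and 2, the same arrays as for the GH9B11 probe. It did not show the separation of the genotypes seen on the GH9B12 probe, although the difference between these probes was not tested. The shared probe was listed at 0 on WT 3 and 4, where the GH9B12 probe read 0.578 and 0.463. It was also at 0 on toc120 4, where the GH9B12 probe had its lowest value, 0.0311.

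The probe shared by GH9B16, GH9B17 and GH9B18 was near 0 throughout. Its highest value was 0.0565 on toc120 arrays and 0.0275 on WT arrays, with 2 toc120 and 3 WT arrays listed at 0. The log2 difference was 0.40 (95% interval -0.15 to 0.95, limma adjusted p = 0.227), which passed in 1 fit, that on averaged neighbours blocked by number pair (0.0322). The lowest toc120 value on the GH9B16 probe, 0.165, was read on array 4, where the shared probe was listed at 0.

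**Figure D5:**
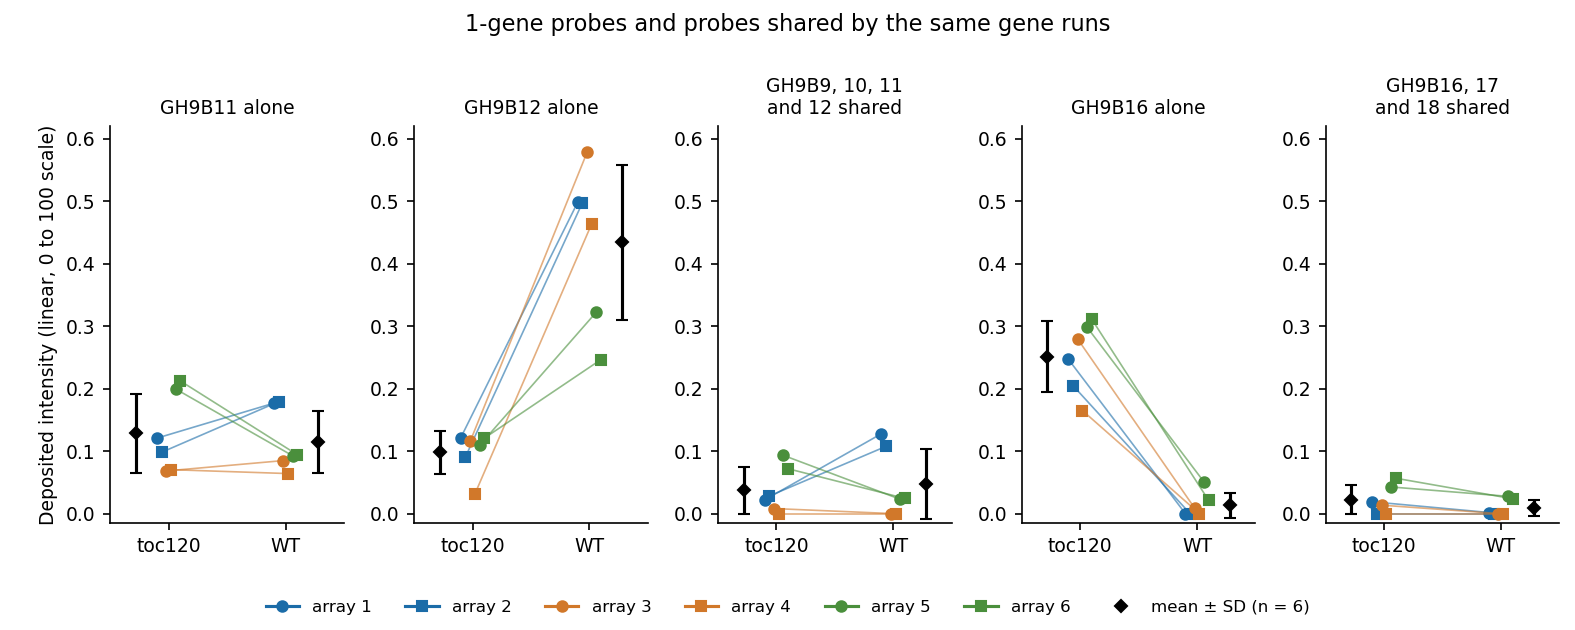
Deposited intensity (linear, one scale for all panels) of the 1-gene probes of GH9B11, GH9B12 and GH9B16 and of the probes shared by the gene runs they belong to, on 6 toc120 and 6 WT arrays; lines join equal numbers, colours mark neighbouring numbers, and diamonds are means ± SD (n = 6). The shared probes stay at or below 0.128, and neither separates the genotypes.

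Of the other shared probes, the one annotated with GH9B9 and GH9B10 gave a log2 difference of 0.16 (limma adjusted p = 0.801), which was -0.02 with equal array medians. One annotated with GH9B14 and GH9B15 was at -0.86 (limma adjusted p = 0.0686), and passed when blocked by sample number (0.0188) and when the dimmest 25% of probes were left out (0.0414). A second probe of that same pair, and one shared by GH9B17, GH9B18 and a gene outside the family, were listed at 0 on all 12 arrays. The probe of the class C genes GH9C2 and GH9C3 was lower in toc120, at 0.333 ± 0.0772 in toc120 and 0.406 ± 0.0580 in WT (SD, n = 6 each), with a log2 difference of -0.84 (limma adjusted p = 2.33e-05, and 0.00594 averaged). In the intensities as deposited it was at -0.28 and did not pass (limma adjusted p = 0.157).

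The wider cellulose and wall-loosening machinery was hardly measured singly. Of the 25 symbols of family 9, 24 were found in the gene table, 4 of them (the members) had a 1-gene probe and 8 lay only on shared probes. No locus had a 1-gene probe among 16 of the cellulose synthase complex, 33 xyloglucan endotransglucosylases (XTH), 35 expansins, 10 of the COBRA family or 47 of glycosyl hydrolase family 1. Of 32 cellulose synthase-like loci, 1 had such a probe. This was CSLA01, of a family of mannan synthases, at 0.0164 ± 0.0175 in toc120 and 0.0268 ± 0.00378 in WT, which did not pass (log2 difference -0.53, limma adjusted p = 0.0982) except with equal array medians (-0.64, 0.0227).

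Of the marker genes listed for tissues, 1 of 16 green-tissue loci and 0 of 13 root, 4 pollen and stamen, 9 seed and 5 xylem loci had a 1-gene probe. The measured one was LHB1B2, a chlorophyll a/b binding protein, at 20.3 ± 4.25 in toc120 and 28.3 ± 5.10 in WT (log2 difference -0.25, limma adjusted p = 0.0228, and 0.0634 averaged). The size of this difference moved with the scaling, to -0.48 as deposited (limma adjusted p = 0.0285, and 0.190 averaged) and -1.08 with equal array medians (0.000303, and 0.0317 averaged). The LHB1B2 probe stood above 99.1% to 99.3% of the probes on toc120 arrays and 99.3% to 99.4% on WT arrays, so it was among the brightest in both genotypes. With 1 marker measured, the makeup of the tissue was otherwise not readable, and its part in the differences of the GH9B genes was not tested.

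For each member the 3 most similar 1-gene probes were taken by Pearson's r of log2 intensity over the 12 arrays, out of 662 probes that varied. For members that separate the genotypes this r mainly reflects the genotype difference, so r within genotypes is given beside it, computed on deviations from the genotype means. Arrays are shared by all probes and neighbouring arrays are alike, so these values describe the arrays and carry no test.

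GH9B12 was most like CYN, the gene of the cyanate-degrading enzyme cyanase (r 0.968, within genotypes 0.708), AT3G57630, an arabinosyltransferase acting on the wall glycoprotein extensin (0.966, within genotypes 0.602), and XERICO, a RING zinc finger gene linked to abscisic acid (0.966, within genotypes 0.733). GH9B16 was most like AT4G21820 (r 0.975, within genotypes 0.736), AT4G35980 (0.957, within genotypes 0.456) and AT3G21810 (0.951, within genotypes 0.455). For GH9B8 the first was AT1G22850 (r 0.887, within genotypes 0.787), followed by AT1G21350 (0.872, within genotypes 0.898) and AT3G09080 (0.850, within genotypes 0.635). For GH9B11, which did not separate the genotypes, they were AT4G23080 (r 0.880, within genotypes 0.872), AT4G16060 (0.833, within genotypes 0.831) and AT2G17670 (0.820, within genotypes 0.810). No gene was among the nearest 3 of more than 1 member. Few shared genes could arise, because each member had 3 picks out of 662 probes. Over the 12 arrays GH9B12 ran opposite to GH9B16 (r -0.876, within genotypes 0.187) and GH9B8 (r -0.607, within genotypes 0.399). The negative r thus reflects the opposite genotype differences and was not seen within genotypes.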

How the data were processed

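The values are probe intensities that the authors deposited as a single table of 3439 probes on 12 arrays, linear and with a top of 100. How the background was corrected and the values scaled is not given in the sources used here. No counts underlie them, so the number of arrays limits the precision. Every column was mapped to a sample (0 unmapped).

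Probes were named from GEO's platform annotation, which can be old: 692 have 1 gene, 870 several and 1877 none. Locus names follow the TAIR10.1 gene table, and no coordinates are given because the probes' build is not known.

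Intensities were quantile-normalised, 0.0261 (the 5th percentile of positive values) was added and log2 taken, and toc120 was compared with WT in limma 3.58.1 (R 4.3.3; lmFit and eBayes), two-sided, p-values being adjusted over all probes by Benjamini and Hochberg's method. The fit was tested on simulated data. Figures used matplotlib 3.10.9. Alternatives were other scalings, a larger constant, averaging of neighbouring numbers, blocks, a filter on dim probes and arrays left out.

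The genotypes share the numbers 1 to 6. Deviations from the genotype mean correlated between equal numbers with r from 0.217 to 0.348, each array correlating best with its own number, so the numbers appear to pair the samples; the pairing comes from the data, not the labels, and the main fit is unpaired.

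The members, lists and tests were chosen with earlier results of these data known. Named genes were the 4 members, called genes of the wall lists (at most 3 per direction) with up to 2 uncalled ones, and the 3 most similar probes of each member. The annotation's shared probes of family 9, the marker gene and the rank comparison were added after values had been seen.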

Additional observations from a re-analysis of the deposited data

Results flagged for a closer look

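On toc120 array 4 the GH9B12 probe stood apart from the other toc120 arrays, at a deposited intensity of 0.0311 against 0.0907 to 0.121. The gap to the nearest array took up 0.66 of the range of the 6 arrays, more than Dixon's 95% critical value allows. Without this array the log2 difference of GH9B12 was -2.11 instead of -2.32 (limma adjusted p = 5.94e-06). It was the 1 such case among 22 groups of 6 arrays examined for the members, the shared family 9 probes, CSLA01 and LHB1B2, and chance marks about 1 in 20.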

How the results depend on the processing

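GH9B12 and GH9B16 kept their direction and passed under every alternative run, and leaving out arrays gave log2 differences of -2.71 to -1.96 for GH9B12 and 2.38 to 2.91 for GH9B16. GH9B8 lost its call with neighbours averaged (1.17, limma adjusted p = 0.0940), and with averaged neighbours blocked by number pair (1.17, 0.160). It also lost it with equal array medians and neighbours averaged (1.19, limma adjusted p = 0.0863), and without numbers 5 and 6 (0.76, 0.133). With arrays or number pairs left out, GH9B8 was at 0.76 to 1.44. It kept its call as deposited and averaged (1.51, 0.0449) and with neighbours as a random block (0.0497). The filter on dim probes removed GH9B8. GH9B11, never called, turned to 0.10 as deposited (also averaged) and had a difference in mean intensity of 0.0129 (exact permutation p = 0.645), and lay between -0.77 and -0.02 with arrays left out. The 1587 probes called became 979 on averaged neighbours blocked by number pair, 899 as deposited and averaged, and 912 with equal medians and averaged, and 1294 to 1589 with arrays left out. The share of calls that were higher in toc120 was 74.4% as deposited, 46.3% with quantile normalisation and 41.3% with equal medians. Among the ratios between members, GH9B16 over GH9B8 was the one that lost its call, under the replicate block (1.51, exact sign-flip adjusted p = 0.0625). The replicate block changed no other member's call over the 12 arrays. The averaged alternatives with another scaling, the omission of number pairs and the ranks were chosen after seeing the data.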
